A study of Homo sapiens with 16 samples.

Results

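Aminoacyl-tRNA synthetases, the enzymes that load each tRNA with its amino acid, and the scaffold proteins of their multi-enzyme complex were followed in 4 lung cancer lines. The members were 38 listed genes, found in the expression table by gene identifier with older symbols counted as the same gene (AARS for AARS1), and all 38 were among its 28951 genes. They were 19 cytosolic enzymes, 16 mitochondrial enzymes and 3 scaffold proteins, and the question was whether the cytosolic and the mitochondrial enzymes changed alike with treatment in each line.

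Human cells use separate nuclear genes for most cytosolic and mitochondrial synthetases, which supply the ribosomes of the cytosol and of the mitochondrion. Many cytosolic synthetase genes are known targets of ATF4, the transcription factor made when the integrated stress response is active, for instance when amino acids are short and uncharged tRNA activates the kinase GCN2 (gene EIF2AK4). Some cytosolic enzymes sit together in the multi-synthetase complex, held by the scaffold proteins AIMP1, AIMP2 and EEF1E1.

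Total RNA was sequenced from 4 established human non-small cell lung cancer lines. The treated cells received MYCi975, which inhibits MYC, at 5 µM together with 25 µM TMP195, an inhibitor of class IIa histone deacetylases, and are called the combination libraries. The vehicle cells received DMSO, and both arms were collected after 48 hours. The series describes H460 and H1703 as responsive and HCC827 and H441 as non-responsive. There were 2 libraries for every line and treatment, 16 in all, with 8493271 to 13604150 reads in listed genes. Each line is 1 model and the single agents were not analysed here, so an effect of either compound alone cannot be told apart. The labels do not say whether replicate libraries came from separate cultures, so p-values measure the spread between libraries, which may be technical.

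The lines matched their known features in part. EGFR was highest in HCC827, PDGFRA reads came almost wholly from H1703 and AKR1B10 was highest in H460. SFTPB, listed for H441, was low there, at 58.5 and 97.7 normalised reads with vehicle and 19.1 and 8.17 with the combination. In HCC827 vehicle libraries it had 19.4 and 37.5. The lung lineage genes NKX2-1 and NAPSA had 1735 and 1759 and 957 and 981 in H441 with vehicle, against 1022 and 951 and 60.6 and 56.7 in HCC827. Of 6 epithelial genes, the summed level was 232 to 265 normalised reads in H1703 libraries and 27747 to 101128 in those of the other lines, and EPCAM and CDH1 were near 0 in both H460 and H1703. The 6 genes found of those listed for other cell types, among them genes of macrophages, endothelium and fibroblasts, summed to 76.5 to 93.5 normalised reads in the combination libraries of H460, against 141 to 159 in its vehicle libraries. The sums were 21.3 to 32.7 against 6.31 to 9.74 with vehicle in H1703, 48.2 to 54.4 against 76.3 to 90.1 in HCC827 and 88.1 to 96.7 against 125 to 143 in H441. The mitochondrial rRNA MT-RNR2 took 15.4 to 15.9% of reads with the combination in H460, against 13.1 to 14.3% with vehicle, 13.6 to 15.3% against 10.4 to 11.6% in H1703, 15.7 to 17.1% against 19.7 to 21.0% in HCC827 and at least 16.9% against at most 16.5% in H441. The part of these differences in the results was not tested.

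Values are normalised reads, which are the reads of a gene divided by the size factor of its library. Each change is a log2 difference of the deposited values, combination minus vehicle, given with its standard error (SE) in a limma fit of all 16 libraries. A gene was called higher or lower when its p, adjusted over 23968 genes by Benjamini and Hochberg, was under 0.05, and all 38 members were tested.

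The cytosolic enzymes together took a larger share of the reads with the combination in every line. In H460 the share was 0.566 and 0.577% of reads in the combination libraries, against 0.367 and 0.372% in the vehicle libraries. In HCC827 it was 0.525 and 0.572% with the combination and 0.320 and 0.303% with vehicle. In H441 it was 0.416 and 0.428% with the combination and 0.340 and 0.328% with vehicle, and in H1703 it was 0.635 and 0.653% against 0.560 and 0.555% with vehicle. The combination and vehicle libraries did not overlap in any of the 4 lines. In H1703 the rise was mostly that of GARS1 and AARS1. GARS1 had 8178 and 8685 normalised reads there with the combination, against 5556 and 5351 with vehicle. AARS1 had 3960 and 3912, against 2421 and 2319. All 19 summed to 58697 and 58651 with the combination, against 54079 and 52921 with vehicle, and 6 were called higher and 5 lower.

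The mitochondrial enzymes behaved otherwise. In H460 their share was lower, at 0.0606 and 0.0628% of reads in the combination libraries, against 0.0866 and 0.0884% in the vehicle libraries. In H1703 it was 0.0640 and 0.0674% with the combination and 0.0677 and 0.0706% with vehicle. In HCC827 it was 0.0510 and 0.0539% with the combination and 0.0531 and 0.0535% with vehicle, and in H441 it was 0.0516 and 0.0517% against 0.0509 and 0.0536%. The shares overlapped between treatments in HCC827 and H441 and stood apart in H460 and H1703. As summed normalised reads, which are scaled otherwise, HCC827 and H441 also stood apart, in opposite directions. The sums were 5251 and 5476 in the combination libraries of HCC827 and 5867 and 5884 in its vehicle libraries, and 5756 and 5869 with the combination in H441, against 5454 and 5748 with vehicle. The lower sums of H460 and H1703 were mostly those of IARS2. In H460 IARS2 alone held 3021 and 3655 of 6754 and 7485 with the combination, against 5054 and 5254 of 9290 and 9362 with vehicle. In H1703 it held 1851 and 1981 of 5915 and 6054, against 2408 and 2588 of 6536 and 6731. Of the 16 enzymes, 11 in H460 and 10 in H1703 were not called. In such bulk samples a change in the cells present and a change in RNA per cell cannot be told apart.

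**Figure D1:**
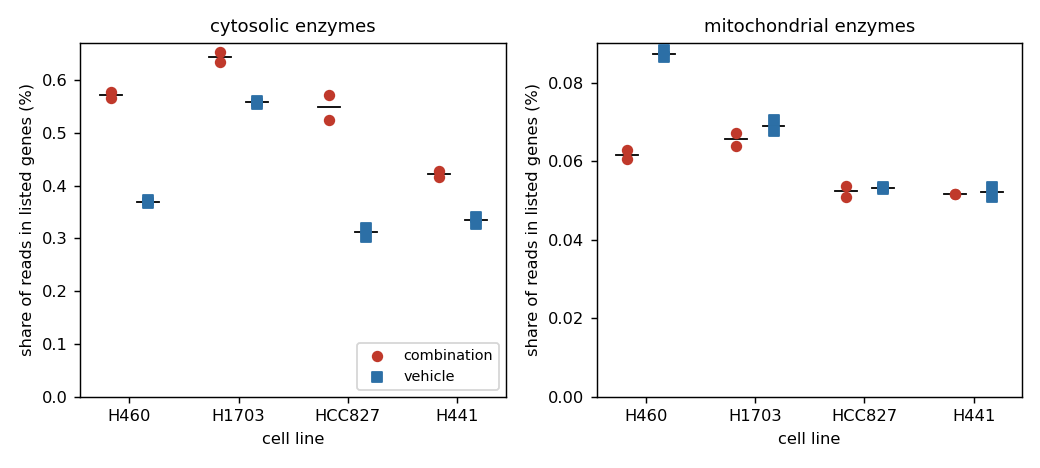
Share of the reads in listed genes (percent) taken by the 19 cytosolic enzymes (left) and the 16 mitochondrial enzymes (right), by line, with 1 point per library (circles combination, squares vehicle) and a bar at the mean of 2. The cytosolic share was higher with the combination in each line, while the mitochondrial share separated most in H460, at 0.0606 and 0.0628% with the combination against 0.0866 and 0.0884% with vehicle. Most of that fall was in IARS2, and most of the cytosolic rise in H1703 was in GARS1 and AARS1.

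In H460 12 of 19 cytosolic enzymes were called higher and 2 lower, where 26.7% of all genes tested were called, 14.1% higher and 12.6% lower. In HCC827 13 of 19 were higher and 0 lower, against a background of 9.92% called, 4.42% higher and 5.5% lower. In H441 12 of 19 were higher and 0 lower, against 4.63% called, 2.77% higher and 1.86% lower. In H1703 6 of 19 were higher and 5 lower, against 35.5% called, 17.9% higher and 17.6% lower. The median change of the cytosolic enzymes was 0.43 in H460, 0.51 in HCC827 and 0.38 in H441, beside medians of 0.05, 0 and 0 over all genes tested, and it was -0.06 in H1703, beside 0.08.

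Of the 16 mitochondrial enzymes, 1 was called higher and 4 lower in H460, and 1 higher and 5 lower in H1703. After centring each library on its median gene these counts were 0 and 8 in H460, with a median change of -0.38, and 0 and 6 in H1703. Of 23968 genes tested, centring left 2173 higher and 4495 lower in H460 and 2626 and 5824 in H1703. As fitted without centring, the share called higher was below that among all genes in both lines and the share called lower was above it, a difference that was not tested. None was called in HCC827 or H441 with limma, where 3 and 1 passed an unadjusted p of 0.05, and a voom fit of the recovered reads called 1 lower in HCC827 and 0 in H441. Their median change was -0.09 in HCC827, -0.18 in H460, 0.04 in H1703 and 0.03 in H441. The cytosolic median exceeded the mitochondrial median by 0.61 in H460, 0.59 in HCC827 and 0.35 in H441. In H1703 the difference was -0.10, and it turned to 0.18 under quantile normalisation and to 0.10 without the second combination library. These differences were not tested. For scale, each library was given its median cytosolic minus its median mitochondrial value, with every gene centred on its mean. Between replicate libraries that score had a pooled SD of 0.115.

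**Figure D2:**
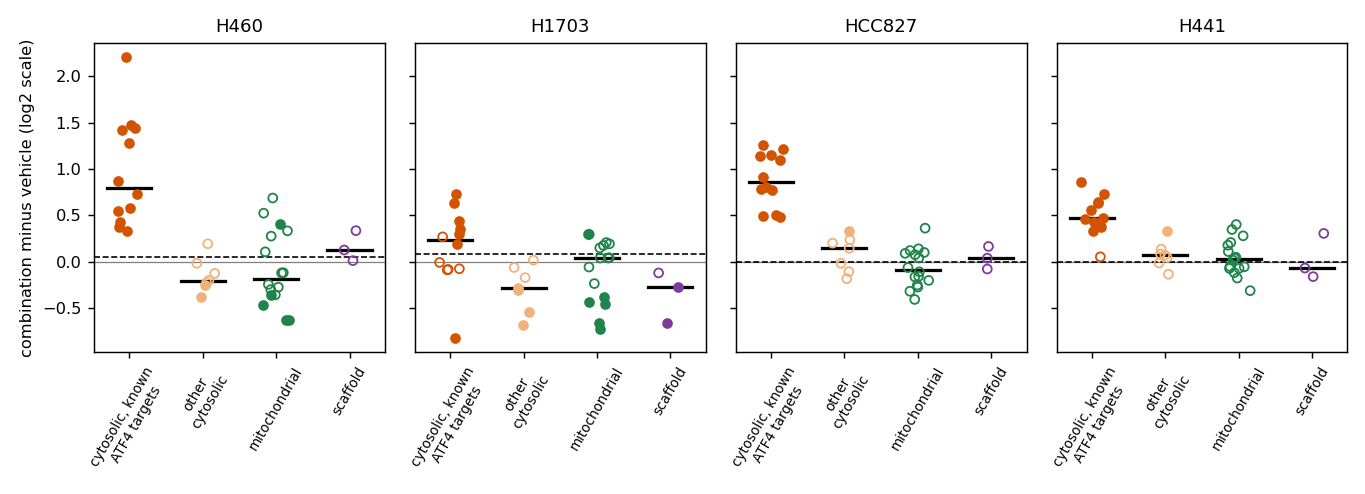
Change with the combination (combination minus vehicle, log2 scale) of each member by line, with filled points called at an adjusted p under 0.05, a bar at each group's median and a dashed line at the median of all genes tested. Cytosolic enzymes known as ATF4 targets had medians of 0.80 in H460, 0.86 in HCC827 and 0.47 in H441, and spread over 0.73 to -0.82 in H1703.

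Centring each library on its median gene moved every change by -0.19 in H460 and by -0.24 in H1703, but by only -0.03 in HCC827 and 0.01 in H441. After centring, cytosolic enzymes split into 10 higher and 5 lower in H460 and 2 higher and 11 lower in H1703, and after quantile normalisation into 13 and 1 in H460 and 8 and 3 in H1703. Of all 23968 genes, 2173 were higher and 4495 lower in H460 after centring, and 2626 and 5824 in H1703. Quantile normalisation gave 2947 and 3333 in H460 and 4085 and 4238 in H1703. The direction of the cytosolic median in H1703 therefore depended on the scaling (-0.31 centred, 0.14 after quantile normalisation), whereas that of H460, HCC827 and H441 was higher under each.

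Higher calls fell mostly on cytosolic genes listed from general knowledge as ATF4 targets. Of 12 such enzymes, 12 were called higher in H460, 12 in HCC827, 11 in H441 and 6 in H1703, with 1 lower there, which median centring made 2 higher and 5 lower with a median of -0.01. Of the 7 other cytosolic enzymes, 0 were higher in H460 and H1703 and 1 in HCC827 and H441, while 2 were lower in H460 and 4 in H1703. Among all genes tested 14.1% were higher in H460, 4.42% in HCC827, 2.77% in H441 and 17.9% in H1703. The shares lower were 12.6% in H460 and 17.6% in H1703, where centring gave 2626 genes higher and 5824 lower of 23968. The lists were chosen with earlier results of these data known. The median change of the known targets was 0.86 in HCC827, 0.80 in H460, 0.23 in H1703 and 0.47 in H441, and that of the other cytosolic enzymes was 0.14 in HCC827, -0.20 in H460, -0.28 in H1703 and 0.07 in H441.

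The 6 cytosolic enzymes called higher in all 4 lines were AARS1, EPRS1, GARS1, LARS1, NARS1 and SARS1, where 0.505% of all genes tested were higher in all 4. A further 5, CARS1, IARS1, MARS1, TARS1 and YARS1, were higher in H460, HCC827 and H441 but not in H1703, so that 11 of 19 were higher in those 3 lines, against 0.722% of all genes. No mitochondrial enzyme or scaffold gene was higher in those 3 lines.

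The promoters of these genes are shown because ATF4 binds, with C/EBP partners, a composite element of the form TGATGNAA. RefSeq windows on GRCh38.p14, running from 250 bases before to 50 after each listed transcription start, were found for 33 of the 38 members. The 5 without one were YARS1, LARS1, VARS1, AARS2 and VARS2. TGATGNAA on either strand was present at the first listed start of 6 of 16 cytosolic enzymes (37.5%), 1 of 14 mitochondrial enzymes (7.14%) and 1003 of 27305 genes (3.67%). Among known ATF4 targets it was present in 6 of 10, and among the other cytosolic enzymes in 0 of 6. That split came from general knowledge, with earlier results of these data known, so these counts are no independent support for it. The stretches that follow run from 40 bases before the match to 20 after it, but not past +25, 5′ to 3′ on the strand of the gene, with the match in capitals. Positions count from +1 at the listed start.
TARS1, chr5:33440927-33440989, plus strand, match first base +3: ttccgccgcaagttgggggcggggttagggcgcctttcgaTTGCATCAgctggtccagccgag
IARS1, chr9:92293683-92293750, minus strand, match first base -13: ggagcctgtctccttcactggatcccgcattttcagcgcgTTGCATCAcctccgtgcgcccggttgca
CARS1, chr11:3057399-3057465, minus strand, match first base -2: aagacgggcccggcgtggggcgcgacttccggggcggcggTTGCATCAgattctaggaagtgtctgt
MARS1, chr12:57488024-57488091, plus strand, match first base -4: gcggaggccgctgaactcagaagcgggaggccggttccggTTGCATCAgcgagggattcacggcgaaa
AARS1, chr16:70289666-70289733, minus strand, match first base -187: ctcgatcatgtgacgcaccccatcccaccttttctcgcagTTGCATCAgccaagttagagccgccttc
NARS1, chr18:57621812-57621862, minus strand, match first base +15: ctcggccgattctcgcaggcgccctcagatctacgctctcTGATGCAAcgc
GARS1, chr7:30594805-30594872, plus strand, match first base -33: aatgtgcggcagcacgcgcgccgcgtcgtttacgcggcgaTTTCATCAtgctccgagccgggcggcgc
YARS2, chr12:32756067-32756134, minus strand, match first base -197: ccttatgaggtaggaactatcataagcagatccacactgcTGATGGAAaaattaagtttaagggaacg
The first 6 matches are the same 8 letters, TGATGCAA, read on the opposite strand as TTGCATCA in each but NARS1. The GARS1 match, TGATGAAA on the opposite strand, lies at its second listed start, and the first start holds none. YARS2, with TGATGGAA, was the mitochondrial enzyme with a first-start match, and it was called lower by 0.46 in H1703 and not called in H460 (-0.25), HCC827 (-0.20) or H441 (0.04). All 6 cytosolic genes with a first-start match were called higher in H460, HCC827 and H441, whereas in H1703 2 were higher (AARS1 and NARS1), IARS1 was lower and 3 were not called. Of the 10 cytosolic enzymes whose first-start window held no match, 4 were higher in H460, 4 in HCC827 and 3 in H441, with SARS1, EPRS1 and WARS1 among those of H460. The shares of all genes called higher were 14.1% in H460, 4.42% in HCC827, 2.77% in H441 and 17.9% in H1703. A window without these letters says nothing about binding of ATF4 elsewhere at the gene, and a match does not show that ATF4 binds there.

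GARS1 (chr7:30594681-30634033, plus strand) charges glycine tRNA in both the cytosol and the mitochondrion. It had 7576 and 8340.1 normalised reads in the combination libraries, against 2773 and 2965 in the vehicle libraries in H460, and 4235 and 4626 with the combination, against 2083 and 2039 with vehicle in HCC827. In H1703 the values were 8178 and 8685 with the combination, against 5556 and 5351 with vehicle, and in H441 2769 and 2919.6 with the combination, against 2119 and 1970.5 with vehicle. No combination library overlapped a vehicle library of its line. The rise was 1.10 in HCC827, 1.47 (SE 0.07, adjusted p = 6.91e-12) in H460, 0.63 in H1703 and 0.48 in H441.

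SARS1 (chr1:109213918-109238169, plus strand) makes seryl-tRNA, which also feeds selenocysteine synthesis. It had 2756 and 2993 normalised reads in the combination libraries, against 1049 and 1069.8 in the vehicle libraries in H460, and 4004 and 4683 with the combination, against 1905 and 1825 with vehicle in HCC827. In H1703 it had 2007 and 1879 with the combination, against 1499.8 and 1533 with vehicle, and in H441 2538 and 2963 with the combination, against 1675 and 1825 with vehicle. The libraries stood apart in each line, and the change was 1.21 (SE 0.09, adjusted p = 2.57e-08) in HCC827, 1.44 in H460, 0.65 in H441 and 0.36 in H1703. AARS1 (chr16:70252295-70289543, minus strand), the alanine enzyme, had 6249 and 7017 normalised reads in the combination libraries, against 3131 and 2881 in the vehicle libraries in HCC827, and 3959.6 and 3912 with the combination, against 2421 and 2319 with vehicle in H1703. It was higher by 1.14 in HCC827, 0.87 in H460, 0.73 in H1703 and 0.56 in H441. In H1703 AARS1 and GARS1 were the 2 cytosolic enzymes still called higher after median centring.

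The other 3 enzymes higher in all lines changed less. LARS1, the leucine enzyme and a leucine sensor for mTORC1, was higher by 0.80 in HCC827, 0.63 in H441, 0.44 in H1703 and 0.33 in H460. EPRS1, a single protein with glutamate and proline activities, was higher by 0.73, 0.30, 0.49 and 0.33 in H460, H1703, HCC827 and H441. NARS1, the asparagine enzyme, was higher by 0.43, 0.20, 0.48 and 0.38 in the same order of lines. Median centring ended the H1703 calls of LARS1, EPRS1, NARS1 and SARS1, and turned NARS1 to -0.05 there. The NARS1 call in H1703 also ended without either combination library or the second vehicle library of that line (adjusted p 0.0726 to 0.156). The LARS1 call in H460 ended after median centring (0.315) and without the second combination library (0.0523), and the EPRS1 call in H441 without the second combination or vehicle library (0.0740 and 0.0883).

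WARS1 (chr14:100333788-100376805, minus strand) loads tryptophan and is known both as an ATF4 target and as an interferon-induced gene. It had 8323 and 8344 normalised reads in the combination libraries, against 1859 and 1740.0 in the vehicle libraries in H460, a change of 2.21 (SE 0.10, adjusted p = 5.61e-12) and the largest rise among the members. In HCC827 it had 2728 and 3091 with the combination, against 1220.3 and 1197 with vehicle, a change of 1.26 (SE 0.10, adjusted p = 1.49e-07). In H1703 it had 658 and 853 with the combination, against 785 and 795 with vehicle, and in H441 1201 and 1393 with the combination, against 1185 and 1313 with vehicle. The libraries stood apart in H460 and HCC827 and overlapped in H1703 and H441, where the changes of -0.08 and 0.05 were not called. The response was larger in H460 than in H1703 by 2.29 (SE 0.15, adjusted p = 1.7e-09) and larger in HCC827 than in H441 by 1.21 (SE 0.15, adjusted p = 0.000145). Of 10 interferon-stimulated genes, 1 was higher and 3 lower in H460, 0 and 6 in H1703, 0 and 1 in HCC827, and 1 and 0 in H441. Among all genes 14.1% were higher and 12.6% lower in H460, 17.9% and 17.6% in H1703, 4.42% and 5.5% in HCC827, and 2.77% and 1.86% in H441. The response differed between H460 and H1703 for 5 of the 10, all higher in H460, against 11.3% of all genes. Between HCC827 and H441 it differed for 0, against 2.01%. Their part in the WARS1 values was not tested.

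**Figure D3:**
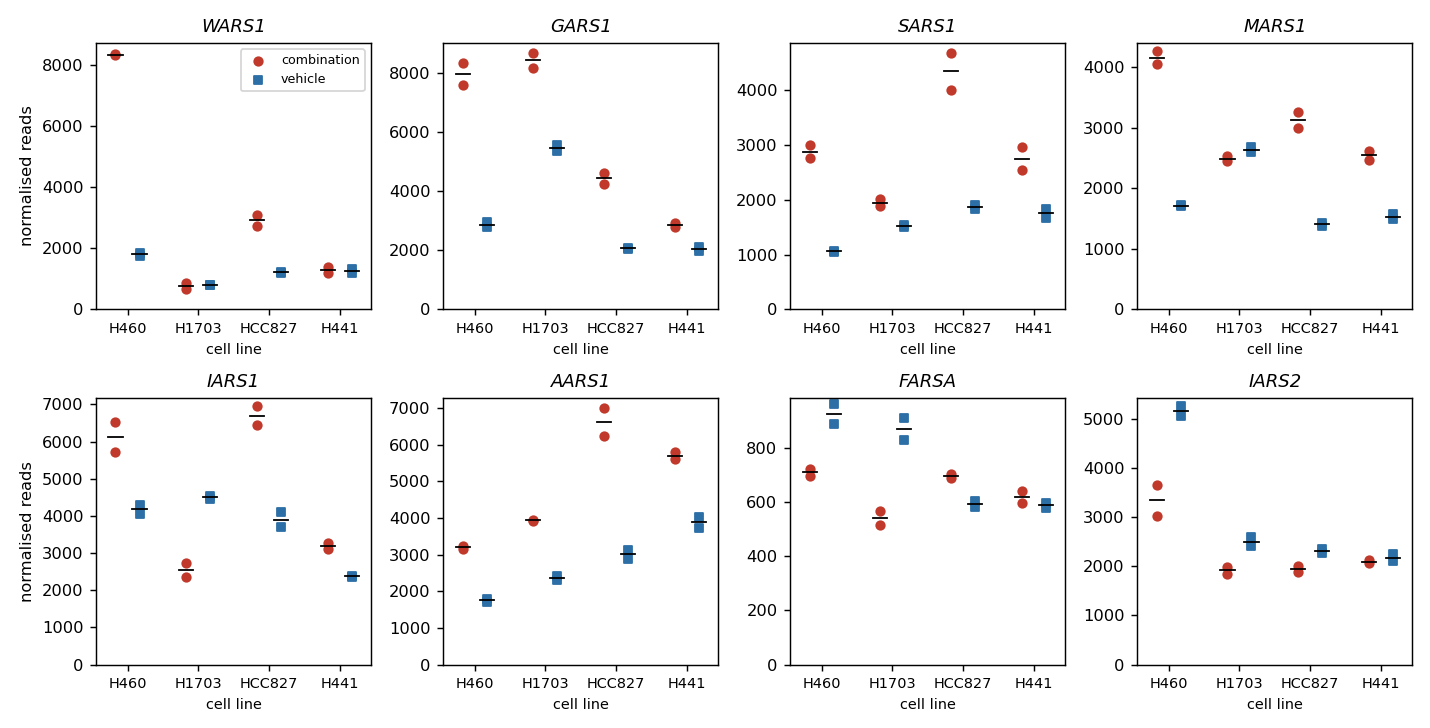
Normalised reads of 8 members by line, with 1 point per library (circles combination, squares vehicle) and a bar at the mean of 2. WARS1 reached 8323 and 8344 with the combination in H460, against 1859 and 1740 with vehicle, and did not separate by treatment in H1703 or H441, while IARS1 was lower with the combination in H1703 alone.

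IARS1 (chr9:92210207-92293756, minus strand), the isoleucine enzyme of the complex, changed in opposite directions. It had 2368 and 2726 normalised reads in the combination libraries, against 4533 and 4461 in the vehicle libraries in H1703, a fall of 0.82 (SE 0.08, adjusted p = 7.02e-08). In H460 it had 5723 and 6533 with the combination, against 4054 and 4296 with vehicle, and in HCC827 6451 and 6946 with the combination, against 4094 and 3695 with vehicle. In H441 it had 3103 and 3281 with the combination, against 2391 and 2365 with vehicle, and the rises were 0.55 in H460, 0.78 in HCC827 and 0.42 in H441. The libraries stood apart in each line. The H441 call ended without the second combination library of H441 (adjusted p 0.0547), and the difference between H460 and H1703 was 1.37 (SE 0.11, adjusted p = 3.81e-08).

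MARS1 (chr12:57475445-57517569, plus strand), the methionine enzyme, had 4054 and 4265 normalised reads in the combination libraries, against 1709 and 1724 in the vehicle libraries in H460. In HCC827 it had 2991 and 3264 with the combination, against 1434 and 1373 with vehicle, and in H441 2475 and 2623 with the combination, against 1573 and 1494 with vehicle. In H1703 it had 2454 and 2533 with the combination, against 2687 and 2599 with vehicle, with combination below vehicle by 0.08, which was not called although the libraries stood apart. It rose by 1.28 in H460, 1.15 in HCC827 and 0.73 in H441. The exons of MARS1 overlap those of DDIT3, a stress gene on the opposite strand, over 5.05% of their length, and DDIT3, named here after its values were seen, rose by 2.16 in H460, 1.97 in HCC827, 1.02 in H441 and 2.76 in H1703. Its part in the MARS1 values was not tested.

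CARS1, the cysteine enzyme, had 908 and 796 normalised reads in the combination libraries, against 318 and 315 in the vehicle libraries in H460. It rose by 1.42 in H460, 0.91 in HCC827 and 0.85 in H441, and its change of 0.27 in H1703 was not called (adjusted p = 0.0655). YARS1, the tyrosine enzyme, rose by 0.58, 0.77 and 0.46 in H460, HCC827 and H441, and TARS1, the threonine enzyme, by 0.37, 0.51 and 0.39. In H1703 YARS1 changed by -0.09 and TARS1 by -0.01, neither called, and quantile normalisation gave TARS1 a called 0.27 there. The libraries of CARS1 stood apart in each line. The YARS1 call in H441 ended without the first combination or second vehicle library of H441 (0.0615 and 0.103), and median centring ended the TARS1 call in H460.

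**Figure D4:**
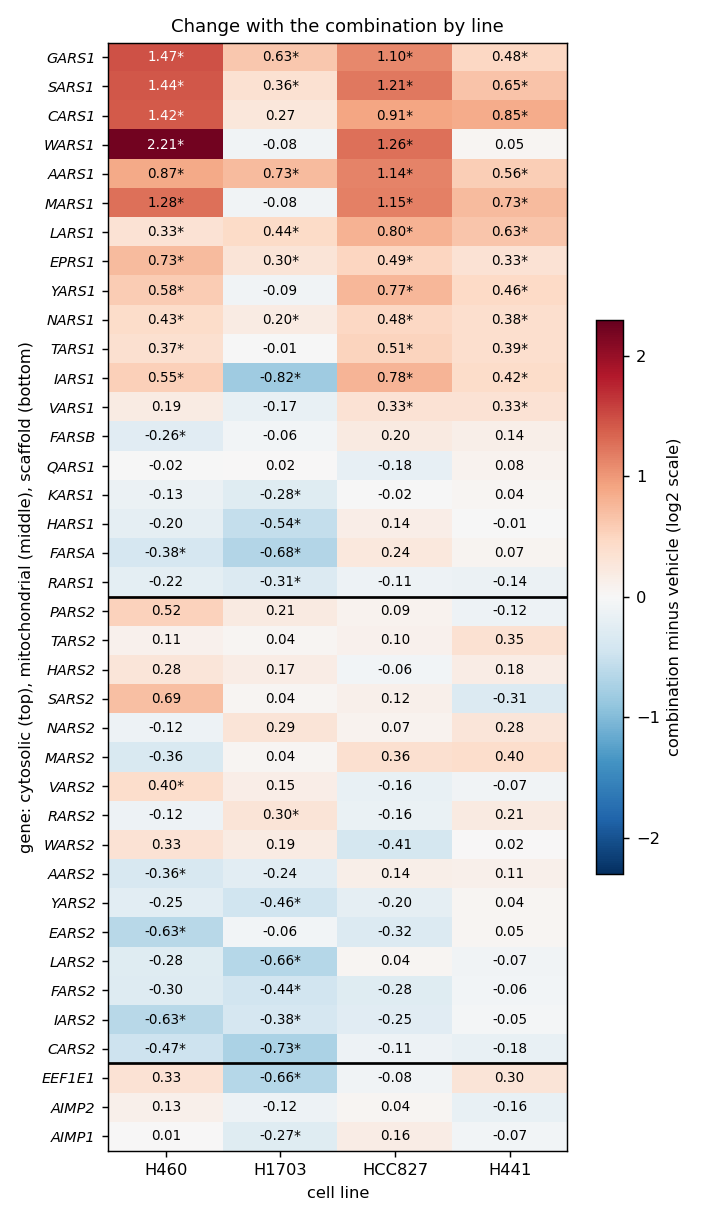
Change with the combination (combination minus vehicle, log2 scale) of the 38 members in each line, ordered within the cytosolic, mitochondrial and scaffold groups by the mean over the lines, with an asterisk for an adjusted p under 0.05. The upper cytosolic genes are higher in H460, HCC827 and H441, and the asterisks of the mitochondrial genes lie in H460 and H1703, with IARS2 and CARS2 lower in both.

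The cytosolic enzymes not known as ATF4 targets were lower or not called, apart from VARS1. FARSA and FARSB encode the subunits of the phenylalanine enzyme. FARSA had 568 and 514 normalised reads in the combination libraries, against 829 and 911 in the vehicle libraries in H1703, and 697 and 724 with the combination, against 963 and 890.4 with vehicle in H460. The libraries stood apart, and it fell by 0.68 (SE 0.09, adjusted p = 4.37e-06) in H1703 and by 0.38 (SE 0.09, adjusted p = 0.00298) in H460. In HCC827 and H441 it changed by 0.24 and 0.07, neither called, and the response differed between responsive and non-responsive lines by -0.68 (SE 0.09, adjusted p = 9.98e-06). FARSB fell by 0.26 in H460, a call that ended without either vehicle library or the first combination library of H460 and without either vehicle library of H1703 or combination library of H441 (adjusted p 0.0512 to 0.343), and after quantile normalisation (0.0538). In H1703 it changed by -0.06, not called.

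HARS1, the histidine enzyme, had 408 and 411 normalised reads in the combination libraries, against 618 and 577 in the vehicle libraries in H1703 and fell by 0.54 (SE 0.10, adjusted p = 0.000322). KARS1, the lysine enzyme of both compartments, fell by 0.28 and RARS1, the arginine enzyme, by 0.31 in H1703. Both of these calls ended after quantile normalisation and without the second combination library of H1703, and also without the second vehicle library for KARS1 and the first for RARS1 (0.0554 to 0.0786). VARS1, the valine enzyme, was higher by 0.33 in HCC827 and 0.33 in H441. The HCC827 call ended without either vehicle library or the second combination library, and the H441 call without any 1 of 10 libraries, the 4 of H441 and the vehicle libraries of the other 3 lines (adjusted p 0.0955 to 0.296 in HCC827 and 0.050 to 0.307 in H441). Median centring ended both calls (0.0676 and 0.0577), and quantile normalisation that of H441 (0.0537). QARS1, the glutamine enzyme, was called in no line, with changes of -0.02, 0.02, -0.18 and 0.08 in H460, H1703, HCC827 and H441.

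Enzymes inside and outside the multi-synthetase complex were both called in part. Of the 7 listed enzymes of the complex, EPRS1, IARS1, KARS1, LARS1, MARS1, QARS1 and RARS1, 4 were higher in H460, HCC827 and H441, and 2 were higher and 3 lower in H1703. Of the 12 cytosolic enzymes outside it, 8 were higher and 2 lower in H460, 9 and 0 in HCC827, 8 and 0 in H441 and 4 and 2 in H1703. Among all genes tested 14.1% were higher and 12.6% lower in H460, and 4.42% and 5.5% in HCC827. In H441 these shares were 2.77% and 1.86%, and in H1703 17.9% and 17.6%. The scaffold genes were not called in H460, HCC827 or H441. In H1703 EEF1E1 had 81.7 and 102 normalised reads in the combination libraries, against 131 and 162 in the vehicle libraries and fell by 0.66 (SE 0.20, adjusted p = 0.0115), and AIMP1 fell by 0.27. The EEF1E1 call ended without the first combination or second vehicle library of H1703 (0.131 and 0.133). The AIMP1 call ended after quantile normalisation and without the second combination or first vehicle library of H1703, or either vehicle library of H460 or H441 (0.0509 to 0.398). AIMP2, of which 28.9% of exon length overlaps EIF2AK1 on the opposite strand, was called in no line.

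Among mitochondrial enzymes IARS2 (chr1:220094102-220148041, plus strand), which loads isoleucine, had the highest vehicle level per kilobase in each line and fell in both responsive lines. It had 3021 and 3655 normalised reads in the combination libraries, against 5054 and 5254 in the vehicle libraries in H460, and 1851 and 1981 with the combination, against 2408 and 2588 with vehicle in H1703. The libraries stood apart in both lines, and it fell by 0.63 (SE 0.08, adjusted p = 5.17e-06) in H460 and by 0.38 (SE 0.08, adjusted p = 0.00092) in H1703, though quantile normalisation ended the H1703 call (adjusted p = 0.0838). In HCC827 it had 1874 and 1999 with the combination, against 2344 and 2271 with vehicle, apart but not called (change -0.25, adjusted p = 0.0561), and the H441 libraries overlapped.

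CARS2, the cysteine enzyme, had 114 and 147 normalised reads in the combination libraries, against 251 and 187 in the vehicle libraries in H1703 and 210.0 and 196 with the combination, against 292 and 273 with vehicle in H460. It fell by 0.73 (SE 0.16, adjusted p = 0.000943) in H1703 and by 0.47 in H460, and the H460 call ended without any 1 of the 4 H460 libraries (0.0575 to 0.154). EARS2, the glutamate enzyme, had 430.3 and 424 normalised reads in the combination libraries, against 646 and 681 in the vehicle libraries in H460 and fell by 0.63 (SE 0.13, adjusted p = 0.000918). In H1703 the EARS2 change of -0.06 was not called. AARS2, the alanine enzyme, fell by 0.36 in H460, also ended without any 1 of its 4 libraries (0.0906 to 0.131).

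In H1703 LARS2, the leucine enzyme, had 232 and 225 normalised reads in the combination libraries, against 359 and 369 in the vehicle libraries, which did not overlap, and fell by 0.66 (SE 0.12, adjusted p = 0.000145). YARS2 and FARS2, for tyrosine and phenylalanine, fell by 0.46 and 0.44 in H1703. The YARS2 call ended without the second combination library or either vehicle library (0.0575 to 0.131), and the FARS2 call without the first combination or second vehicle library (0.225 and 0.306). VARS2 was higher by 0.40 in H460 and RARS2 by 0.30 in H1703, both ended by median centring and that of VARS2 also by quantile normalisation, and the RARS2 call ended without any 1 of the 4 H1703 libraries (0.0865 to 0.154). The VARS2 call ended without the first combination library or either vehicle library of H460 (0.0897 to 0.173).

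The other 7 mitochondrial enzymes, HARS2, MARS2, NARS2, PARS2, SARS2, TARS2 and WARS2, were called in no line, as were QARS1 and AIMP2, 9 of the 38 members against 52.1% of all genes tested. For SARS2, with 5 to 28 reads per library and 10.8% of its exon length shared with MRPS12 on the opposite strand, the counting error was large and its change in H460 had an SE of 0.39. PARS2 had 53.0 and 28.5 normalised reads in the combination libraries, against 29.3 and 23.6 in the vehicle libraries in H460, where the combination libraries differed more from each other than their mean did from the vehicle mean.

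Enzymes for the same amino acid were set beside each other in 17 pairs. The cytosolic change lay above the mitochondrial change in 17 pairs in HCC827, 15 in H441, 13 in H460 and 8 in H1703, with median differences of 0.76 in HCC827, 0.33 in H441, 0.60 in H460 and -0.05 in H1703. EPRS1 enters with EARS2 and with PARS2, and FARS2 with both phenylalanine subunits, so the pairs are not independent. For cysteine, CARS1 minus CARS2 was 1.02 in HCC827, 1.89 in H460, 1.00 in H1703 and 1.03 in H441. For alanine AARS1 minus AARS2 was 1.00 in HCC827, 1.23 in H460, 0.97 in H1703 and 0.45 in H441. For leucine LARS1 minus LARS2 was 0.76 in HCC827, 0.60 in H460, 1.10 in H1703 and 0.71 in H441. For isoleucine the difference was 1.18 in H460, 1.04 in HCC827, 0.48 in H441 and -0.44 in H1703. For histidine it was -0.48 in H460 and -0.72 in H1703, where HARS1 was the lower, and 437 bases of exon are shared by HARS1 and HARS2 on opposite strands.

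**Figure D5:**
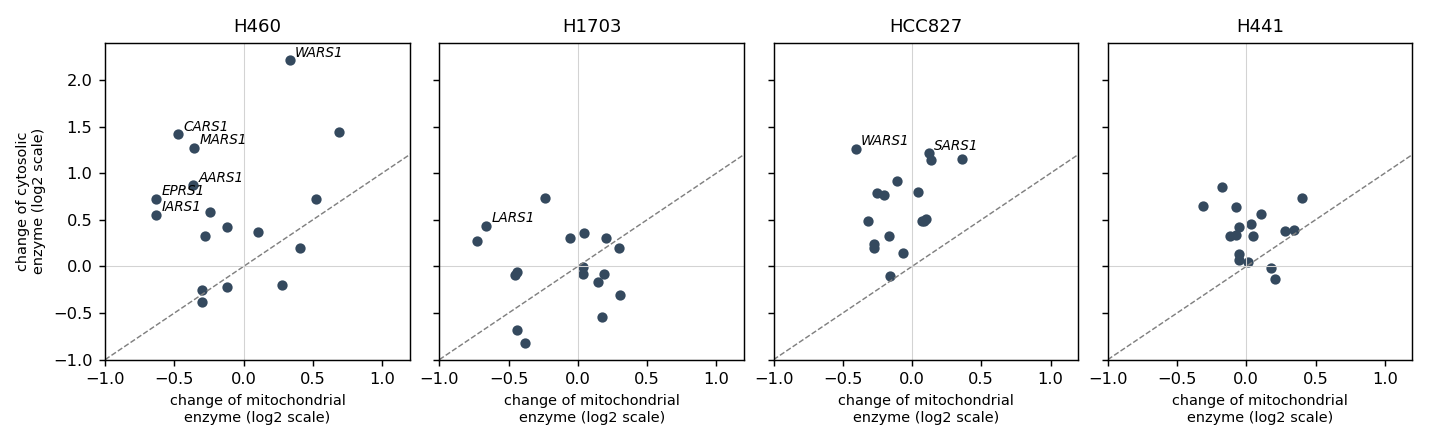
Change of the cytosolic enzyme against that of the mitochondrial enzyme for the same amino acid in 17 pairs by line (combination minus vehicle, log2 scale), with a dashed line of equal change and the pairs farthest above it named by the cytosolic gene. Points lie above the line in 17 pairs in HCC827, 15 in H441, 13 in H460 and 8 in H1703.

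The enzymes that rose in H460 did not rise alike in H1703, although both are called responsive. The response differed between H460 and H1703 for 11 members, 10 of them higher in H460, where 19.1% of all genes differed, 11.3% higher and 7.8% lower in H460. Besides WARS1 and IARS1, MARS1 differed by 1.36 (SE 0.10, adjusted p = 6.93e-09), CARS1 by 1.15, SARS1 by 1.08 and GARS1 by 0.84. HCC827 and H441 differed in 5 members, all higher in HCC827, against 2.01% of all genes, 0.697% higher and 1.31% lower. These were WARS1, GARS1 (0.63), AARS1 (0.58), SARS1 (0.57) and MARS1 (0.42). The SARS1 and MARS1 differences ended without the second combination library of HCC827, among 5 and 6 libraries that each ended them (0.0579 to 0.140), and after median centring (0.0504 and 0.0991).

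Averaged over the responsive lines 12 members were higher and 11 lower, against 20.6% and 17.9% of all genes, and median centring made the counts of members 8 and 18. Centring also moved all genes, from 4945 higher and 4287 lower to 2999 and 6303, of 23968. Over the non-responsive lines 13 were higher and 0 lower, against 6.25% and 6.05%. The responses of the line classes differed for 18 members, 4 higher and 14 lower in the responsive lines, against 11.2% and 12.1%. Among the 14 were IARS1 (-0.74), FARSA (-0.68), CARS2 (-0.46), LARS2 (-0.45) and HARS1 (-0.44). The 4 higher were WARS2, WARS1, VARS2 and GARS1, of which WARS1 was called higher in H460 and HCC827 and WARS2 in no line. After median centring 0 members were higher and 22 lower between the line classes. For this difference centring moved all genes from 2683 higher and 2911 lower to 1442 and 4591. Over all 4 lines 13 members were higher and 9 lower, against 35.2% of all genes called, 18.4% higher and 16.7% lower. Median centring made the counts of members 12 and 14, and those of all genes 2989 and 5651.

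In vehicle cells the members already differed by line. Between the responsive and the non-responsive lines 32 of 38 differed, 25 higher and 7 lower in the responsive lines, against 56.3% of all genes, 28.8% higher and 27.6% lower. GARS1 had the largest higher value, with 2773 and 2965 normalised reads in H460 and 5556 and 5351 in H1703, against 2083 and 2039 in HCC827 and 2119 and 1970 in H441, a difference of 0.95 (SE 0.05, adjusted p = 1.66e-12). PARS2 was lower by 1.37, NARS2 by 1.22 and AARS1 by 0.74 in the responsive lines. For PARS2 HCC827 stood out, with 155 and 138 normalised reads. The other values of PARS2 were 53.0 and 62.9 in H441, 29.3 and 23.6 in H460 and 36.0 and 52.5 in H1703. Since each class is 2 lines, class and line cannot be told apart.

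Per kilobase of exon the vehicle level of the median cytosolic enzyme was 4.70 to 8.10 times that of the median mitochondrial enzyme in single libraries. With the combination it was at least 7.39 times in H460, against at most 5.32 with vehicle, 7.14 and 8.55 times in HCC827, against 5.31 and 4.70, and 10.8 and 9.25 times in H441, against 8.10 and 7.64. In H1703 it was 7.40 and 7.42 times with the combination, against 7.69 and 7.31 with vehicle, which overlap. In vehicle the highest member per kilobase was IARS2 in H460, a mitochondrial enzyme, NARS1 in H1703, EPRS1 in HCC827 and AARS1 in H441, and SARS2 was the lowest in each line. EPRS1 (749 ± 32.1) and KARS1 (735 ± 54.9 normalised reads per kilobase, SD, n = 2), the highest in HCC827, did not differ beyond their spread. IARS2 (1238 ± 34.0) and EPRS1 (1189 ± 4.64) in H460 differed by more than either SD, with no test made.

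Other genes of tRNA charging changed less uniformly. Of 14 such genes 3 were higher and 1 lower in H460, 5 and 2 in H1703, and 1 and 0 in both HCC827 and H441. Among all genes tested 14.1% were higher and 12.6% lower in H460, and 17.9% and 17.6% in H1703. In HCC827 these shares were 4.42% and 5.5%, and in H441 2.77% and 1.86%. SEPSECS, which makes selenocysteine on tRNA, rose by 0.97 in H460 and 1.38 in H1703, and the editing enzyme DTD1 by 0.99 and 0.97. XPOT, the nuclear exporter of tRNA, rose by 0.67 in H460, 1.11 in HCC827 and 0.66 in H441, with -0.14 in H1703, not called. GATC, a subunit that makes mitochondrial glutaminyl-tRNA, fell by 0.28 in H460 and 0.56 in H1703. Of 11 mitochondrial translation factors 1 was lower in H460 and 4 lower and 1 higher in H1703, and none was called in HCC827 or H441 (limma, 1 and 2 at an unadjusted p under 0.05). Among all genes 26.7% were called in H460 and 35.5% in H1703, and a difference from these shares was not tested. TUFM, the mitochondrial elongation factor, fell by 0.37 and 0.73 in H460 and H1703.

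Other ATF4 targets were mostly called higher in H460, HCC827 and H441. Of 26, 23 were higher and 0 lower in H460, 22 and 0 in HCC827, 18 and 0 in H441 and 11 and 7 in H1703. This list too was chosen with earlier results of these data known. Median centring moved every change by -0.19 in H460 and -0.24 in H1703, and counts of this list after centring are not given here. Among all genes tested 14.1% were higher and 12.6% lower in H460, and 4.42% and 5.5% in HCC827. In H441 these shares were 2.77% and 1.86%, and in H1703 17.9% and 17.6%. ASNS, which makes asparagine, rose by 2.21, 2.10, 2.44 and 1.29 in H460, H1703, HCC827 and H441. CHAC1, which degrades glutathione, rose by 4.93 in H460 and 2.80 in HCC827, with 0.91 and 0.37 in H1703 and H441, neither called. These rises started from few reads. CHAC1 had 0.978 and 5.51 normalised reads in the vehicle libraries of H460 and 10.9 and 5.06 in those of HCC827. ASNS had 8.80 and 31.5 in the vehicle libraries of H460 and 4.85 and 5.06 in those of HCC827, so the size of these changes is uncertain. SESN2, an inhibitor of mTORC1, rose by 2.92, 2.24, 2.03 and 0.81 in the same order of lines as ASNS. ATF4 mRNA itself was higher in every line, by 0.73, 1.12, 0.56 and 0.48 in that order. EIF2AK4 was lower by 0.26 in H460 and not called elsewhere. MYC mRNA changed by 0.60 in HCC827, -0.06 in H460, 1.34 in H1703 and 0.26 in H441, called in H1703 and HCC827. Of 16 nucleolar genes known as MYC targets 0 were higher and 9 lower in H460, 1 and 6 in H1703, 3 and 0 in HCC827, and 0 and 1 in H441. The shares of all genes given above for each line apply here too.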

How the data were processed

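RNA from 16 libraries was prepared with a stranded total RNA kit, per the labels' protocols. The submitters' processing notes name Trimmomatic, STAR, featureCounts and the build GRCh38 (hg38), without versions or the strand setting. The authors deposited values on a log2 scale, variance-stabilised counts per the file's name, whose lowest value, 0.481, stands for 0 reads. Inverting that scale gave whole reads for 100% of values (tolerance 0.02 reads).

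Symbols came from a gene name table or GENCODE 29, and gene positions and exon lengths from GENCODE 29, which held 28846 of the 28951 identifiers. Genes were tested where their mean over all libraries was at least 1 log2 unit above the lowest value, which left 23968. limma 3.58.1 (R 4.3.3, with trend and robust options) fitted the 8 group means to the deposited log2 values, and p-values were adjusted over the genes tested by Benjamini and Hochberg (threshold 0.05). Recovered reads entered only a voom alternative, the normalised reads and the shares. Other alternatives were median centring, quantile normalisation, other filters, fits without trend or of 1 line, a replicate block and leaving out each library. The procedure was tested on simulated data. Replicate numbers were not used to pair the libraries in the main fit, since the correlations of same-numbered deviations were only 0.014 to 0.032. That does not show whether same-numbered libraries were prepared together.

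The members and lists were chosen with earlier results of these data known. All 38 members are reported, with at most 4 genes of each other list, those called over all lines with the largest mean change, and MYC, ATF4 and EIF2AK4. Named pseudogenes of members held at most 5.06 reads on average. Some single genes of the other lists are not reported here.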

Additional observations from a re-analysis of the deposited data

Results flagged for a closer look

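The response differed between H460 and H1703 for 11 members by the limma test of the difference, with SE of 0.08 to 0.28 and adjusted p up to 0.0339. The difference, H460 minus H1703, was 2.29 for WARS1, 1.37 for IARS1, 1.36 for MARS1, 1.15 for CARS1, 1.08 for SARS1 and 1.00 for EEF1E1. It was 0.84 for GARS1, 0.67 for YARS1, 0.43 for EPRS1 (-0.0804 after quantile normalisation), 0.38 for TARS1 (0.03 after quantile normalisation, adjusted p 0.842) and -0.57 for EARS2. The EARS2 difference ended without any 1 of the 8 libraries of these lines (0.0512 to 0.123), and that of EEF1E1 without the first combination or second vehicle library of H1703 (0.0786 and 0.0803).

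The response differed between HCC827 and H441 for 5 members (SE 0.10 to 0.15, adjusted p up to 0.026). HCC827 minus H441 was 1.21 for WARS1, 0.63 for GARS1, 0.58 for AARS1, 0.57 for SARS1 and 0.42 for MARS1, and median centring ended those of SARS1 (0.0504) and MARS1 (0.0991).

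The response differed between the responsive and the non-responsive lines for 18 members (SE 0.06 to 0.16, adjusted p up to 0.0489). The responsive lines were higher by 0.46 for WARS2, 0.41 for WARS1, 0.40 for VARS2 and 0.26 for GARS1. Among cytosolic enzymes the difference was -0.74 for IARS1, -0.68 for FARSA, -0.44 for HARS1, -0.37 for YARS1, -0.35 for MARS1 and -0.33 for LARS1. It was -0.33 for FARSB, -0.32 for VARS1, -0.27 for TARS1 and -0.22 for KARS1. Among mitochondrial enzymes it was -0.46 for CARS2, -0.45 for LARS2, -0.42 for AARS2 and -0.35 for IARS2. The differences of KARS1, CARS2, VARS2, WARS2 and AARS2 each ended when 1 library was left out, for 12 libraries with KARS1, 11 with CARS2, 10 with VARS2, 8 with WARS2 and 3 with AARS2 (adjusted p 0.0503 to 0.141), and median centring ended those of GARS1, WARS1, VARS2 and WARS2. Quantile normalisation ended those of VARS1 (-0.18, adjusted p 0.145), KARS1 (-0.10, 0.338) and WARS2 (0.41, 0.0571). For IARS1 the responsive mean joins 0.55 in H460 and -0.82 in H1703, and for MARS1 1.28 and -0.08.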

How the results depend on the processing

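Members called without trend and robust options were 5 in H441, 7 for responsive against non-responsive lines and 1 for HCC827 against H441. All genes called so were 1183 in HCC827, 364 in H441, 1674 in the non-responsive mean and 102 for HCC827 against H441. Fitting a line's own 4 libraries gave 3626 genes in H460, 1299 in HCC827 and 0 in H441 by limma, where 4622 passed an unadjusted p of 0.05 and of the members 0 were called and 15 passed unadjusted. HCC827 against H441 had 3 members after median centring and 8 after quantile normalisation. After centring, all genes split into 2173 higher and 4495 lower in H460 and 2626 and 5824 in H1703, against 3370 and 3028 and 4283 and 4217 as reported. Reversed values were the cytosolic minus mitochondrial median in H1703, 0.18 after quantile normalisation and 0.10 without its second combination library, and, under quantile normalisation, TARS1 in H1703 at 0.27 and EPRS1 for H460 against H1703 at -0.0804. Under centring NARS1 in H1703 was -0.0469, and in the responsive mean AIMP2 was -0.22, TARS1 -0.0362 and VARS1 -0.21. Leaving out 1 library gave 15 to 19 members in H460, 13 to 19 in H1703, 12 to 14 in HCC827, 9 to 12 in H441, 20 to 24 over all lines, 21 to 26 in the responsive and 13 to 14 in the non-responsive mean, 14 to 18 between these, 9 to 12 for H460 against H1703, 3 to 5 for HCC827 against H441 and 29 to 32 between vehicles. In the same order all genes numbered 4886 to 6392, 6281 to 8785, 1013 to 2740, 499 to 1432, 7720 to 8340, 8077 to 9265, 1932 to 3371, 4880 to 5615, 3424 to 4572, 195 to 737 and 12456 to 13696. The cytosolic minus mitochondrial median then ran 0.60 to 0.68 in H460, -0.10 to 0.10 in H1703, 0.55 to 0.62 in HCC827 and 0.25 to 0.46 in H441. A replicate block within lines gave 18, 20, 14 and 12 members in H460, H1703, HCC827 and H441, and changed no count of members by over 1.5 times. Among the members depth limits SARS2 and PARS2 most, with as few as 5 and 25 reads in a library. In the list of other ATF4 targets CHAC1 and ASNS had as few as 1 and 4. The cause of these shifts was not tested.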

Other observations

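The E-box CACGTG, the sequence MYC binds, was present at the first listed start of 1 of 16 cytosolic enzymes (6.25%, IARS1) and 3 of 14 mitochondrial enzymes (21.4%), which were MARS2, CARS2 and EARS2, against 7.43% of all genes. The letters were searched on both strands in the same RefSeq windows. CARS2 fell by 0.47 in H460 and 0.73 in H1703, EARS2 fell by 0.63 in H460, and MARS2 was called in no line. IARS1 rose by 0.55 in H460, 0.78 in HCC827 and 0.42 in H441, and fell by 0.82 in H1703. Whether the E-box had a part in these changes was not tested. Among nucleolar MYC targets NCL, a ribosome assembly protein, fell by 0.68 in H460, 0.92 in H1703 and 0.34 in H441, and changed by -0.05 in HCC827, not called. Not all 16 genes of that list went the same way. In HCC827 3 were higher and 0 lower, against 4.42% and 5.5% of all genes, and in H1703 1 was higher and 6 lower, against 17.9% and 17.6%.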
